A study of Mus musculus with 3 samples.

Results

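The 9 genes *Ppp3ca*, *Ppp3cb*, *Ppp3cc*, *Ppp3r1*, *Rcan1*, *Orai1*, *Orai2*, *Stim1* and *Stim2* encode calcineurin, a protein that binds calcineurin, and the sensors and channels of store-operated calcium entry. They were chosen by gene symbol from the 25759 genes listed for each library, and their exon reads and RPKM (reads per kilobase of exon, scaled to the depth of the library) were read in every library. The study asked what NFATc1, a transcription factor that calcineurin switches on, and Blimp-1, the repressor encoded by *Prdm1*, do in T-follicular regulatory (TFR) cells. TFR cells are regulatory T cells that enter B cell follicles. The mice had received 125 µg of the antigen NP-KLH in alum into the peritoneum, with a boost on day 7, and CD4+B220-GFP+CXCR5+GITRhi cells were sorted on day 10 from spleen and mesenteric lymph nodes. There was 1 library for each of 3 genotypes. N came from Nfatc1fl/fl.Prdm1gfp/+.FIC mice and is labelled NFATc1-deficient. αA came from Nfatc1caaA.Prdm1gfp/+.FIC mice, labelled as overexpressing NFATc1/αA, the short isoform in a constitutively active version. PαA came from Nfatc1caaA.Prdm1gfp/fl.FIC mice, in which *Prdm1* is floxed as well, and is labelled Blimp-1-deficient in addition. FIC is a Cre recombinase made from the *Foxp3* locus, so that floxed alleles are removed in cells that have expressed *Foxp3*. All 3 genotypes carry FIC and a *Prdm1* allele marked with gfp, so no library stands for a wild type. How many mice gave each library, and their age, is not given in the sources used here.

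In a T cell whose antigen receptor is engaged, inositol trisphosphate opens channels in the endoplasmic reticulum and calcium leaves this store. STIM proteins in the membrane of the store sense the loss and open ORAI channels in the plasma membrane, and the calcium that enters binds calmodulin and calcineurin B. Calcineurin, made of a catalytic A and a regulatory B subunit, then removes phosphates from NFAT proteins, which move into the nucleus, and drugs such as cyclosporin A and tacrolimus block this step.

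RefSeq promoter windows (GRCm38.p6) were matched by symbol for 7 of the 9 genes, *Ppp3ca* and *Ppp3cc* not among them, with 8 windows in all because *Rcan1* has 2 starts. The 250 bases before each start were searched on both strands for GGAAA, the core that NFAT proteins bind, and for GTGAAAG, a core that Blimp-1 binds. GGAAA was present in 3 of the 8 windows, against 55.6% of all 32851 windows. GTGAAAG was present in 0 of the 8, against 3.57% of all windows. The windows shown belong to *Rcan1*, whose internal start is a textbook target of NFAT, to *Ppp3cb*, the calcineurin A gene with a window, and to *Orai1*, which has none. They are printed 5′ to 3′ on the strand of the gene. Capitals mark GGAAA or its reverse complement TTTCC.
*Rcan1*, internal start, chr16:92400079-92400328, minus strand: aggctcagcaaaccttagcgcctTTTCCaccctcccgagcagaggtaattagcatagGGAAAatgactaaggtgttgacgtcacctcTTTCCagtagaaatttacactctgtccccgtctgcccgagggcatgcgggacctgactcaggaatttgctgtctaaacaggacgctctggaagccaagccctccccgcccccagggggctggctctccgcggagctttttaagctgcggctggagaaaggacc
*Rcan1*, upstream start, chr16:92466170-92466419, minus strand: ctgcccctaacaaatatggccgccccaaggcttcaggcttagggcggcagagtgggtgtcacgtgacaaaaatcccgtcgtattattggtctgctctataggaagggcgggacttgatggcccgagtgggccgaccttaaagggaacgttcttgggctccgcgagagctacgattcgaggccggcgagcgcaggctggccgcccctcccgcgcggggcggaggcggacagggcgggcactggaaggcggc
*Ppp3cb*, chr14:20546574-20546823, minus strand: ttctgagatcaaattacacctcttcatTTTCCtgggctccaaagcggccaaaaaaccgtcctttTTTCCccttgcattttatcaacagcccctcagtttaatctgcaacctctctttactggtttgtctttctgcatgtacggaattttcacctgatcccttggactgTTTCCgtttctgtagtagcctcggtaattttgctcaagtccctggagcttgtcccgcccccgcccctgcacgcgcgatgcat
*Orai1*, chr5:123014824-123015073, plus strand: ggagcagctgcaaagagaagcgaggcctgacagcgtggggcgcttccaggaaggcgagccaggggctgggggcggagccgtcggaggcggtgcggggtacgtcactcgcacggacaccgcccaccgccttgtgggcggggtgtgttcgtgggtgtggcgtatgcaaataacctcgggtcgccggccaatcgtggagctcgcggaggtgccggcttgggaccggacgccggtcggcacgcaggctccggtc
The internal *Rcan1* window held 3 matches, 1 on the strand of the gene and 2 on the other strand, and the upstream window held 0. The *Ppp3cb* window held 3, each on the other strand. The third window with a match, that of *Orai2*, is not shown and held 1, on the strand of the gene. A match is a string of letters and not a measured site, and binding was not measured in these libraries.

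The targeted genes were read first. The RPKM of *Nfatc1* was 63.6 for N, 62.9 for αA and 32.4 for PαA, so the library labelled NFATc1-deficient was not the lowest, and N, αA and PαA are used here as names of labels only. These reads cover the whole gene and do not show a floxed exon or the transgene apart from the rest. That of *Prdm1* was 25.6 for N, 24.9 for αA and 10.0 for PαA. The libraries held 25465829 to 29726219 reads behind the RPKM, with 80.6% to 83.9% of exon reads mapped uniquely, and introns took 3.62%, 5.30% and 3.91% of gene reads for N, αA and PαA, or 3.01%, 4.56% and 3.29% without genes whose exon length is 0 in the files. The summed RPKM of 4 T cell markers was 1998, 2260 and 1712 in N, αA and PαA, without reads of *Trac*, whose exon length is 0 in the files and whose reads are counted as intron. That of 6 markers of TFR cells and of the sort (*Foxp3*, *Cxcr5*, *Tnfrsf18*, *Prdm1*, *Il2ra* and *Ctla4*) was 591, 571 and 305. *Prdm1*, *Foxp3* (32.7, 20.9 and 15.3 for N, αA and PαA) and *Tnfrsf18* (303, 217 and 145) were highest in N. *Cxcr5* (48.3, 81.3 and 47.6), *Il2ra* (33.5, 38.6 and 29.1) and *Ctla4* (148, 188 and 58.7) were highest in αA. All 6 were lowest in PαA. This sum mostly follows *Tnfrsf18* and *Ctla4*, and it includes *Prdm1*, which is floxed in PαA. For other cells the sums were 291, 1126 and 1065 for 2 erythroid markers, 264, 165 and 232 for 5 myeloid markers (*S100a9* at 0 in αA), 48.6, 62.1 and 101 for 4 B lineage markers, 9.27, 14.1 and 8.14 for 2 CD8 T cell markers (*Cd8a* at 0.193, 2.10 and 2.90, *Cd8b1* at 9.07, 12.03 and 5.24) and 3.18, 4.59 and 6.16 for 2 NK cell markers. Of the myeloid markers, *Lyz2* (213.6, 133.7 and 183.6 for N, αA and PαA), *S100a8* (12.8, 0.831 and 11.9) and *S100a9* were lowest in αA. *Csf1r* (6.25, 10.64 and 6.62) and *Cd68* (16.4, 19.5 and 17.99) were highest in αA, so the myeloid sum mostly follows *Lyz2*. The part of these other cells in the values below was not tested. Fewer cells of a type and less RNA per cell cannot be told apart in bulk libraries.

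With 1 library per genotype there is no replicate, and no difference below was tested between genotypes. Each log2 ratio of RPKM carries an exact 95% Clopper-Pearson interval on the exon reads, which covers counting error only, since reads amplified by PCR are not independent molecules. The 3 comparisons share libraries, so they are not independent of each other. A gene was counted when its RPKM exceeded 5 in 1 or more libraries and the 2 libraries compared were more than 2-fold apart, which is the filter of the study with its expression value read as RPKM. All 9 genes had an RPKM above 5 in every library.

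Of the 9 genes, *Ppp3ca* alone was more than 2-fold apart, and it was lower. Against N, αA had 1 gene lower and 0 higher, where 2.81% of the 7017 genes above the RPKM limit were lower and 1.44% higher. PαA against αA had 0 genes lower and 0 higher, beside 2.45% lower and 2.18% higher of all genes. PαA against N had 1 lower and 0 higher, beside 7.77% lower and 2.57% higher of all genes. The median log2 ratio of the 9 genes was -0.15, 0.0022 and -0.17 in these comparisons, and that of all genes above the limit -0.14, -0.06 and -0.19. The median of the 9 genes was thus close to that of all genes, while the single ratios ran from -1.36 to 0.88 in PαA against N.

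The middle of all genes depended on the scaling. With TMM factors, which set the bulk of genes level between libraries, the median log2 ratio of all genes was 0.02, 0.01 and 0.04 instead. For the 9 genes, directions that turn with a scaling are named with the gene. The direction was the same under every scaling for *Ppp3ca* and *Stim2*, lower in αA than in N and lower again in PαA, for *Ppp3cc*, higher in αA and higher again in PαA, and for *Orai2*, lower in αA and in PαA than in N.

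**Figure D1:**
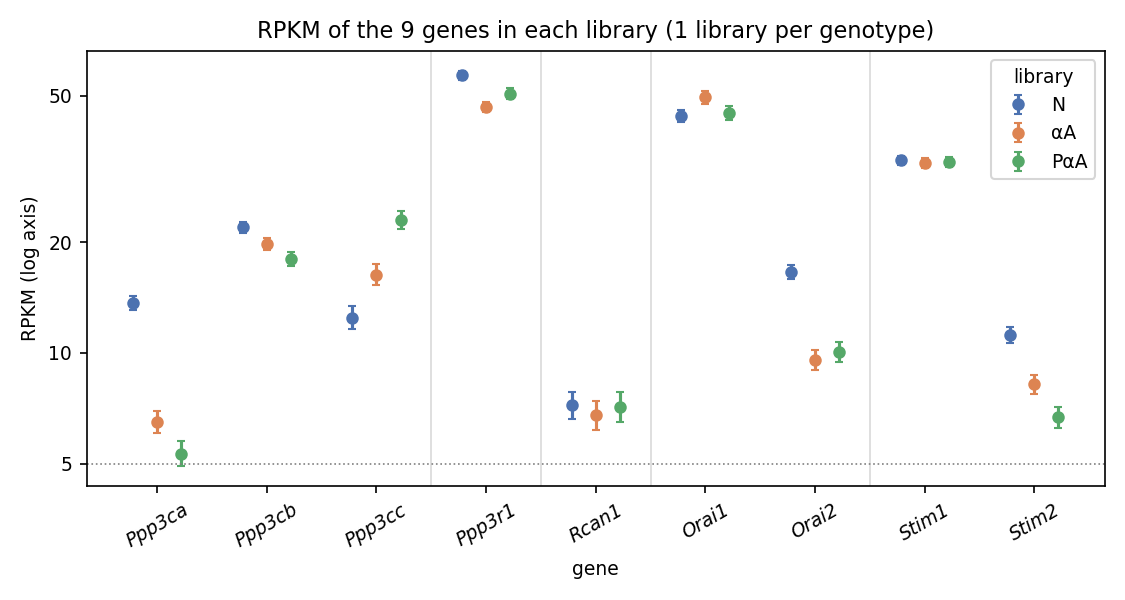
RPKM on a log axis (vertical) of the 9 genes (horizontal) in N, αA and PαA, 1 library each, with points for the RPKM, bars for its exact 95% Poisson interval on exon reads, and a dotted line at an RPKM of 5. *Ppp3ca*, *Orai2* and *Stim2* are highest in N, *Ppp3cc* is highest in PαA at 22.98, and the 3 intervals of *Stim1* and of *Rcan1* overlap.

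Calcineurin A is encoded by 3 genes, and their balance differed between the libraries. *Ppp3ca* (ENSMUSG00000028161, chr3:136670124-136937727, GRCm38) encodes the alpha form of the catalytic subunit, which is widespread in lymphoid and neural cells. Its exon reads numbered 1947 for N, 846 for αA and 649 for PαA, which gave RPKM values of 13.7, 6.49 and 5.32. N was high, and αA and PαA lay close together at a much lower level. The log2 ratio of αA to N was -1.08 (-1.19 to -0.96), and that of PαA to N was -1.36 (-1.49 to -1.23). It fell short of 2-fold for αA against N with TMM factors, at -0.92, and, centred on genes of the same exon length, for αA at -0.86 and for PαA against N at -0.96. Of the genes above the RPKM limit, 2.11% had a lower ratio of αA to N than *Ppp3ca*. PαA against αA gave -0.29 (-0.44 to -0.14), which is within the spread of genes at large.

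*Ppp3cc* (ENSMUSG00000022092, chr14:70217865-70289471) encodes the gamma form, best known from testis. It ran the other way, with 752, 901 and 1188 exon reads and RPKM values of 12.5, 16.3 and 22.98 for N, αA and PαA. The log2 ratio was 0.39 (0.25 to 0.53) for αA against N, 0.50 (0.37 to 0.62) for PαA against αA and 0.88 (0.75 to 1.02) for PαA against N, which is 1.84-fold and so under the 2-fold limit. With TMM factors the last was 1.11 and past it. Of the genes above the RPKM limit, 97.2% had a lower ratio of PαA to N. A noncoding gene on the other strand, *Gm49417*, holds 1.78% of the 59-base stretches of the coding transcripts of *Ppp3cc*, and reads there cannot be told apart if the library was not stranded.

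*Ppp3cb* (ENSMUSG00000021816, chr14:20499364-20546573) encodes the beta form, which T cells rely on strongly. On RPKM it was the most even of the 3, with 3121, 2575 and 2192 exon reads and RPKM values of 21.9, 19.8 and 17.99. The log2 ratio of -0.15 (-0.23 to -0.08) for αA against N turned to 0.01 with TMM factors and to 0.07 when centred on exon length. That of PαA against N, -0.29 (-0.37 to -0.21), turned to 0.12 when centred on exon length, and that of PαA against αA, -0.14, to 0.04. *Ppp3cb* thus had no direction that held under every scaling.

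Shares within a library do not depend on a factor that scales the whole library. *Ppp3ca* made up 28.4% of the summed calcineurin A RPKM in N (27.3% to 29.6%), 15.2% in αA (14.3% to 16.2%) and 11.5% in PαA (10.6% to 12.4%). *Ppp3cc* made up 25.9% in N (24.4% to 27.4%), 38.3% in αA (36.6% to 40.0%) and 49.6% in PαA (47.9% to 51.3%). The share of *Ppp3cb* was 45.6%, 46.4% and 38.9%, so on exon reads the form with the largest share was *Ppp3cb* in N and αA and *Ppp3cc* in PαA. On gene reads, introns included, *Ppp3cc* had the largest share in αA as well, with values given further below. The intervals are normal approximations from the read counts. The sum of the 3 genes differed far less than their shares, at RPKM sums of 48.1 for N, 42.5 for αA and 46.3 for PαA.

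The RPKM of *Ppp3ca* was 1.10 times that of *Ppp3cc* in N, 0.398 times in αA and 0.232 times in PαA. On the log2 scale this ratio was different by -1.46 (-1.65 to -1.28) between αA and N, by -0.78 (-0.97 to -0.59) between PαA and αA and by -2.24 (-2.43 to -2.06) between PαA and N. Reads that span exon-exon junctions, counted separately in the files, gave the same order. *Ppp3ca* had 427, 166 and 100 such reads in N, αA and PαA and *Ppp3cc* had 310, 393 and 525, so that the log2 ratio differed by -1.71, -1.15 and -2.85 in the same comparisons. *Ppp3ca* has 4788 bases of exon and *Ppp3cc* 2030, and centred on exon length the difference between PαA and N was -1.92. The summed erythroid markers given above (291, 1126 and 1065) also set N apart from αA and PαA, and the B lineage markers (48.6, 62.1 and 101) run in the order of *Ppp3cc*. Their part in these ratios was not tested.

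**Figure D2:**
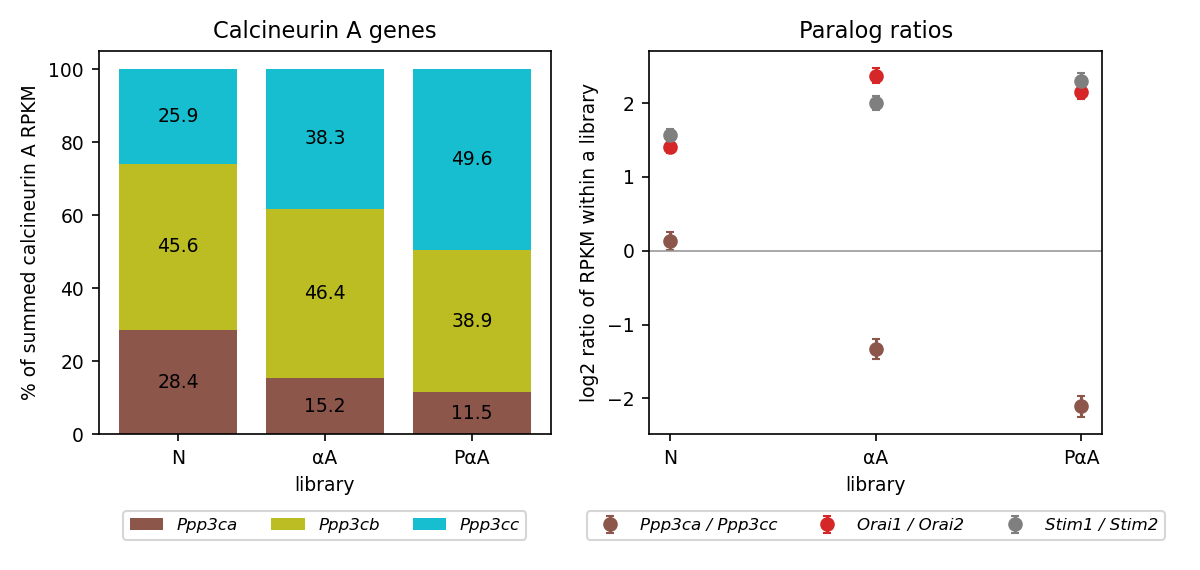
Left, bars for the percentage of the summed calcineurin A RPKM (vertical, from 0) that *Ppp3ca*, *Ppp3cb* and *Ppp3cc* make up in N, αA and PαA. Right, the log2 ratio of RPKM within each library (vertical) for *Ppp3ca* over *Ppp3cc*, *Orai1* over *Orai2* and *Stim1* over *Stim2*, with 95% counting intervals. *Ppp3ca* shrinks from 28.4% to 11.5% while *Ppp3cc* grows from 25.9% to 49.6%, and the ratios of the Orai and of the Stim genes are lowest in N.

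Intron reads of *Ppp3ca* did not follow its exon reads. They numbered 202 for N, 218 for αA and 202 for PαA, and they made up 9.40%, 20.5% and 23.7% of the reads of the gene. The log2 ratio of intron reads was 0.24 (-0.05 to 0.52) for αA against N, close to the median of 0.25 over 3463 genes with at least 20 intron reads in both libraries, while the exon reads gave -1.08. *Ppp3cc* had 313, 282 and 403 intron reads. Its intron ratio of PαA to N was 0.59 (0.37 to 0.81), beside 0.88 for exon reads. The source of the intron reads was not tested. Total intron reads differed by 0.51 on the log2 scale between αA and N and by 0.09 between PαA and N, or by 0.56 and 0.11 without genes of exon length 0.

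**Figure D3:**
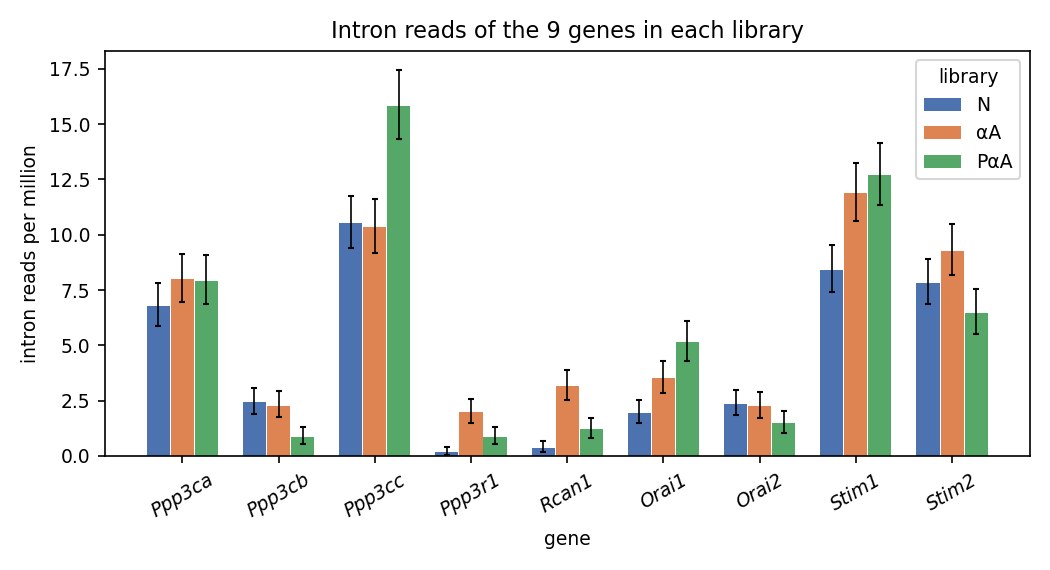
Intron reads divided by the library total (vertical, from 0, scaled as the axis states) for the 9 genes (horizontal) in N, αA and PαA, with exact 95% Poisson intervals as bars. The 3 bars of *Ppp3ca*, at 6.80, 8.003 and 7.93, have overlapping intervals, and *Ppp3cc* is highest in PαA. *Rcan1* (0.370 in N, 3.16 in αA) and *Ppp3r1* (0.168 in N, 1.98 in αA) are lowest in N and highest in αA.

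*Ppp3r1* (ENSMUSG00000033953, chr11:17159263-17200375) encodes calcineurin B, the subunit that binds calcium and that all catalytic forms need. Its RPKM was 56.8 for N, 46.5 for αA and 50.6 for PαA, from 4831, 3622 and 3686 exon reads, the highest of the 9 genes in N and PαA, whereas *Orai1* stood above it in αA. N was the highest and αA the lowest of the 3. The log2 ratio was -0.29 (-0.35 to -0.23) for αA against N, 0.12 (0.06 to 0.19) for PαA against αA, which turned to -0.04 on TPM, and -0.17 (-0.23 to -0.10) for PαA against N, which turned to 0.06 with TMM factors. Only 16.7%, 12.04% and 12.2% of its exon reads were unique, so its level is uncertain. On the 806, 436 and 450 unique reads the ratio was -0.76 for αA against N and -0.62 for PαA against N. *Wdr92* overlaps *Ppp3r1* on the same strand, and 14.4% of its 59-base stretches occur in transcripts of *Wdr92*. The summed RPKM of calcineurin A over that of *Ppp3r1* was 0.846 in N, 0.915 in αA and 0.914 in PαA.

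*Rcan1* (ENSMUSG00000022951, chr16:92391953-92466146) encodes a protein that binds and inhibits calcineurin and is itself induced by calcineurin and NFAT from the internal start shown above. Its exon level was nearly the same in the 3 libraries, with 536, 462 and 456 exon reads and RPKM values of 7.20 for N, 6.77 for αA and 7.15 for PαA. Its log2 ratio was -0.09 (-0.27 to 0.09) for αA against N, 0.08 (-0.11 to 0.27) for PαA against αA and -0.01 (-0.19 to 0.17) for PαA against N, so no difference was detectable at this depth on RPKM. These signs turned with the scaling, to 0.07 for αA against N and 0.22 for PαA against N with TMM factors and to -0.09 for PαA against αA on TPM. Intron reads numbered 11 for N, 86 for αA and 31 for PαA. Their log2 ratio was 3.09 (2.18 to 4.15) for αA against N and 1.72 (0.69 to 2.86) for PαA against N. The former lay above 1.23, the 90th percentile of the genes with at least 20 intron reads in both libraries. *Rcan1* missed that limit in N. Such a ratio was not particular to *Rcan1*. For *Ppp3r1* the intron ratio of αA to N was higher, at 3.56 (2.25 to 5.24), from 5, 54 and 22 reads. *Rcan2*, outside the 9 genes and without exon reads, had 18, 129 and 32 intron reads, a ratio of 2.97 (2.25 to 3.77). The source of these intron reads was not tested. The files give 1 count per gene, so reads from the upstream and the internal start were not told apart.

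Of the family of *Rcan1*, *Rcan3* stood at an RPKM of 6.90, 6.74 and 5.46 in the same order. *Rcan2* had 0 exon reads in every library, which allows up to 3 reads in each.

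ORAI proteins form the channel through which calcium enters. *Orai1* (ENSMUSG00000049686, chr5:123015074-123030456), the main channel subunit of T cells, had 2451, 2524 and 2145 exon reads, with RPKM values of 44.0 for N, 49.4 for αA and 44.9 for PαA. On RPKM αA was the highest, and N and PαA did not differ beyond counting error. The log2 ratio was 0.17 (0.09 to 0.25) for αA against N, -0.14 (-0.22 to -0.05) for PαA against αA and 0.03 (-0.05 to 0.11) for PαA against N, the last turning to -0.17 on TPM and rising to 0.26 with TMM factors. Intron reads of *Orai1* numbered 58 for N, 96 for αA and 131 for PαA, a log2 ratio of 1.399 (0.94 to 1.87) for PαA against N.

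*Orai2* (ENSMUSG00000039747, chr5:136147459-136170713), a subunit that joins ORAI1 in mixed channels and lowers the current in T cells, was lower in αA and PαA. It had 2013, 1062 and 1046 exon reads, with RPKM values of 16.6 for N, 9.56 for αA and 10.1 for PαA, so that N stood above the other two. The log2 ratio was -0.80 (-0.91 to -0.69) for αA against N and -0.72 (-0.83 to -0.61) for PαA against N, and 0.08 (-0.05 to 0.20) for PαA against αA, which turned to -0.09 on TPM. Centred on exon length, the ratio of PαA to N was -0.39. Between 54.4% and 56.8% of its exon reads were unique, and on unique reads the ratios to N were -0.77 and -0.76. No 59-base stretch of its coding transcripts was found in an annotated transcript of another gene.

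*Orai1* exceeded *Orai2* by 2.65 times in N, 5.17 times in αA and 4.46 times in PαA. On the log2 scale this ratio was higher by 0.96 (0.83 to 1.10) in αA and by 0.75 (0.62 to 0.89) in PαA than in N. *Orai3*, the third channel gene and no member of the 9, had an RPKM of 20.3, 19.1 and 18.8, and the summed RPKM of the 3 Orai genes was 80.9 in N, 78.1 in αA and 73.8 in PαA.

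STIM proteins sense the calcium of the store. *Stim1* (ENSMUSG00000030987, chr7:102267806-102437319), the sensor that carries most store-operated entry in T cells, was on RPKM the most even of the 9 genes. It had 4495, 4066 and 3807 exon reads, with RPKM values of 33.3, 32.9 and 32.9 for N, αA and PαA. The log2 ratios to N were -0.02 (-0.08 to 0.04) for αA and -0.02 (-0.08 to 0.05) for PαA, and with TMM factors they turned to 0.14 and 0.21. The log2 ratio of PαA to αA was 0.0022 (-0.06 to 0.07) and turned to -0.16 on TPM.

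*Stim2* (ENSMUSG00000039156, chr5:53998499-54121057), a sensor that responds to smaller losses of store calcium, was lower in αA than in N and lower again in PαA. It had 1649, 1110 and 843 exon reads, with RPKM values of 11.2, 8.22 and 6.68, and the 3 counting intervals did not overlap. The log2 ratio was -0.45 (-0.56 to -0.33) for αA against N, -0.30 (-0.43 to -0.17) for PαA against αA and -0.74 (-0.87 to -0.62) for PαA against N. *Stim2* has 4958 bases of exon, and centred on exon length the last ratio was -0.33, with the same sign. Its intron reads were 233, 253 and 165. *Stim1* exceeded *Stim2* by 2.98 times in N, 4.00 times in αA and 4.93 times in PαA.

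**Figure D4:**
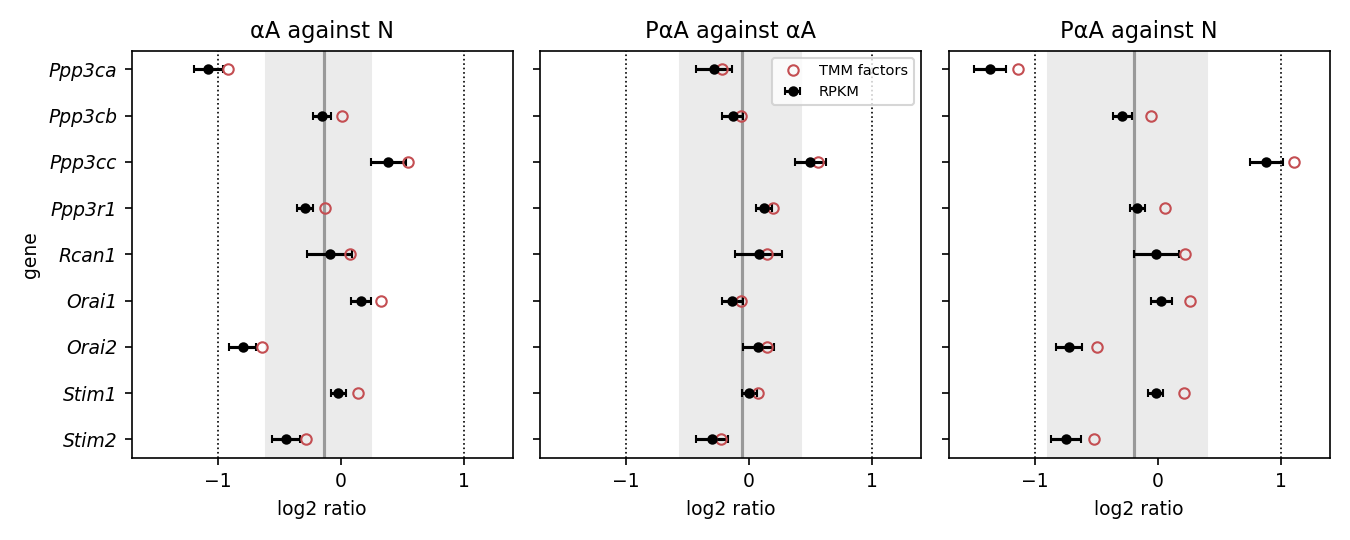
Log2 ratios (horizontal) of the 9 genes (vertical) in the 3 comparisons. Black points give the RPKM ratio with its exact 95% counting interval, open circles the ratio with TMM factors, grey lines and bands the median and the span from the 10th to the 90th percentile of all genes with an RPKM above 5, and dotted lines 2-fold. *Ppp3ca* lies left of the 2-fold line in αA against N and PαA against N, and with TMM factors it lies right of the line in αA against N.

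The pattern most like that of *Ppp3ca*, the gene with the widest range over the 3 libraries (1.36 on the log2 scale), was looked for among 8173 other genes with at least 100 exon reads in every library and at least 50% of them unique. The measure was the distance between the pair of log2 ratios, αA against N and PαA against αA. The 3 nearest genes were *Abcc4* (RPKM values of 6.09, 2.96 and 2.49, distance 0.053), *Herc1* (3.25, 1.49 and 1.19, distance 0.061) and *Mpp5* (3.95, 1.92 and 1.63, distance 0.064). In all, 65 genes lay within a distance of 0.2. With 3 libraries such likeness describes 2 ratios and no more.

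The neighbours of the 9 genes in the pathway were followed through a list of 65 genes in 8 roles, of which 50 exceeded an RPKM of 5 in 1 or more libraries. In αA against N, 0 of the 50 were more than 2-fold apart in either direction, beside the 2.81% lower and 1.44% higher given above. In PαA against αA, 3 of 50 (6.0%) were lower, beside 2.45% of all genes. In PαA against N 4 of 50 (8.0%) were lower, close to the 7.77% of all genes. None of the 50 was higher. The 3 genes lower in PαA against αA lay near the limit, and each interval held ratios under 2-fold. Their log2 ratios were -1.09 (-1.21 to -0.97) for *Itpr2*, -1.06 (-1.17 to -0.94) for *Atp2b4* and -1.01 (-1.20 to -0.82) for *Kcna3*. The median log2 ratio of the list was -0.17, -0.16 and -0.34 in the 3 comparisons.

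The 4 genes past 2-fold encode proteins that release calcium, pump it out or hold the membrane potential. *Itpr2*, a channel opened by inositol trisphosphate, had RPKM values of 9.30, 5.61 and 2.63 for N, αA and PαA, with a log2 ratio of -1.82 (-1.93 to -1.71) for PαA against N. *Itpr3*, its relative, had 6.28, 4.59 and 2.66, a log2 ratio of -1.24 (-1.37 to -1.10). *Atp2b4*, a calcium pump of the plasma membrane, had 9.93, 6.16 and 2.96, a log2 ratio of -1.75 (-1.85 to -1.64). *Itpr3* has 8990 bases of exon, *Atp2b4* 11928 and *Itpr2* 11941, and centred on exon length none of them was more than 2-fold apart.

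*Kcna3*, the potassium channel Kv1.3 that keeps the driving force for calcium entry, had an RPKM of 21.9, 14.3 and 7.10. Its log2 ratio of PαA to N was -1.63 (-1.80 to -1.45), and centred on exon length it was -1.57. *Kcna3* has 1902 bases of exon. *Kcnn4*, the other main potassium channel of T cells, had 104, 84.2 and 92.4. *Itpr1*, chosen after its values were seen because it missed the RPKM limit, had 4.56, 0.973 and 1.83.

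By role, the lowest medians for PαA against N were those of plasma membrane pumps and channels (-0.68, 7 genes), of calcineurin substrates (-0.58, 6 genes), of calmodulin-dependent kinases (-0.57, 3 genes) and of calcium stores and release (-0.51, 8 genes). Calcineurin regulators and anchors (0.04, 8 genes) and store-operated entry partners (-0.12, 6 genes) lay above the median of all genes. These medians were not centred on exon length, which differs widely between the genes, as with *Camk4* (12331 bases) and *Ppia* (2005 bases). Among the regulators *Ppia*, the cyclophilin that cyclosporin A binds, had an RPKM of 745, 779 and 946. Among the entry partners the most abundant were *Saraf*, which turns the entry off, with 250, 244 and 229, and *Pdia3* with 255, 244 and 219. *Calr* and *Canx*, calcium-binding chaperones of the store, had 478, 445 and 403 and 94.6, 87.1 and 77.4. Of the 6 substrates, *Nfatc1*, a targeted gene, had the lowest log2 ratio of PαA to N, at -0.98. The median of the substrates was not taken without it. *Nfatc3*, another substrate, had an RPKM of 43.1, 38.2 and 30.6.

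**Figure D5:**
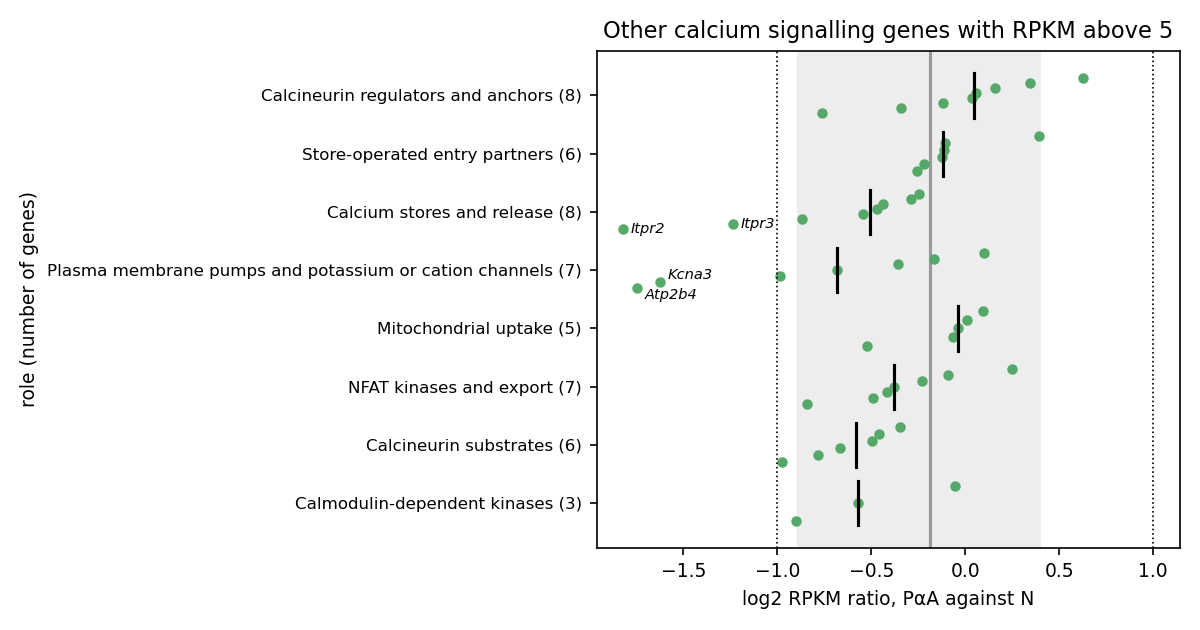
Log2 RPKM ratio of PαA to N (horizontal) for the 50 listed genes with an RPKM above 5, by role (vertical, with the number of genes). Points are genes, black ticks the median of a role, the grey line and band the median and the span from the 10th to the 90th percentile of all genes with an RPKM above 5, and dotted lines 2-fold. *Itpr2*, *Itpr3*, *Atp2b4* and *Kcna3* lie left of the 2-fold line and no gene lies right of it.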

How the data were processed

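RNA of sorted cells was made by the authors into poly(A) libraries with 15 PCR cycles, sequenced as single reads of 59 bases and aligned to GRCm38 in CLC Genomics Workbench (v12, default settings). The annotation release is not given in the sources used here. The authors deposited, per gene, whole-number counts of exon, unique exon, junction, intron and gene reads, RPKM (scaled by exon length and by a library total recovered here) and TPM. 3715 genes with an exon length of 0 have no exon reads and entered no ratio of exon reads.

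The 9 genes, the wider list and the comparisons were chosen with earlier results of these data known. Named were the 9 genes, the targeted genes, listed genes past the filter, the paralogs *Rcan2*, *Rcan3* and *Orai3*, the 2 most abundant genes of each role (1 of them is not reported here) and the 3 genes nearest to the member with the widest range. Log2 ratios of RPKM carry exact Clopper-Pearson intervals (scipy 1.17.1, Python 3.11.15), and no test was run with 1 library per genotype. On reads simulated for αA against N with Poisson counting error alone, 95.2% of 2000 intervals of unchanged genes held the true ratio. As the interval assumes such counting, this checks its computation and not its fit to reads amplified by PCR. Alternatives in scaling were TPM, TMM factors (edgeR 4.0.16), median-of-ratios factors (computed in R 4.3.3), total exon reads and a lowess centring on exon length (statsmodels 0.14.6). Further alternatives were unique reads, a pseudocount of 1, other RPKM limits, a 1.5-fold limit and gene reads. Junction reads and length centring of the ratio of *Ppp3ca* to *Ppp3cc* were chosen after seeing the data. Promoters came from RefSeq. Coordinates of 8 of the 9 genes were identical in GENCODE M21, and *Rcan1* ended elsewhere.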

Additional observations from a re-analysis of the deposited data

How the results depend on the processing

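The results are bounded by 1 library per genotype, and the counting intervals do not cover differences between mice or sorts. Genotype, sort and library cannot be told apart. No paired analysis was possible because the labels give no replicate numbers and each genotype has 1 library. For the 9 genes singly, 189 alternative values were computed, 113 moved by less than their counting interval, 76 by more, and 29 changed sign without a call. The cause of the changes below was not tested, except where fewer or other reads were counted.

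Of the 9 genes, the number past 2-fold in αA against N went from 1 to 0 with TMM factors, median-of-ratios factors, length centring or 1 added to RPKM, and to 2 at 1.5-fold. In PαA against N it went from 1 to 2 with TMM or median-of-ratios factors (*Ppp3ca* lower, *Ppp3cc* higher), to 0 with length centring and to 4 at 1.5-fold. The median log2 ratio of the 9 genes in αA against N, PαA against αA and PαA against N became 0.0096, 0.070 and 0.062 with TMM factors, 0.020, 0.075 and 0.077 with median-of-ratios factors and 0.0094, 0.11 and 0.080 with length centring. On TPM it became -0.16 and -0.36 in the latter pair, and on unique reads -0.29 in PαA against N.

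Of the wider list, αA against N went from 0 to 1 (*Itpr1*) on TPM, at RPKM above 1 and with no filter, and to 5 at 1.5-fold. PαA against αA went from 3 to 1 with TMM, median-of-ratios (*Itpr2*) or length centring (*Kcna3*), to 0 with 1 added to RPKM, to 5 with no filter and to 8 at 1.5-fold. PαA against N went from 4 to 10 on TPM, 2 with length centring (*Kcna3* lower, *Erp29* higher), 7 with no filter and 14 at 1.5-fold.

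Within libraries (N, αA, PαA), unique reads gave a log2 ratio of *Orai1* to *Orai2* of 2.25, 3.19 and 3.04 and of calcineurin A to *Ppp3r1* of 2.34, 2.93 and 2.91. Gene reads, introns included, gave *Ppp3ca* shares of 16.4% in αA and 12.5% in PαA, *Ppp3cb* shares of 40.7%, 40.6% and 32.5%, *Ppp3cc* shares of 32.0%, 43.0% and 55.03%, log2 ratios of *Stim1* to *Stim2* of 1.46, 1.81 and 2.16, and of calcineurin A to *Ppp3r1* of -0.044, 0.077 and 0.14. The log2 ratio of *Ppp3ca* to *Ppp3cc* differed by -1.71, -1.15 and -2.85 on junction reads and, with length centring, by -0.58 in PαA against αA and -1.92 in PαA against N. Total exon reads as the denominator changed no count of the 9 genes.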

Other observations

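Mitochondria take up part of the calcium that enters. Of the 6 genes of this uptake, 5 had an RPKM above 5, and 0 were more than 2-fold apart in any comparison, beside 1.44% to 7.77% of all genes called in 1 direction. *Smdt1*, a subunit of the uniporter complex, had an RPKM of 99.6 in N, 94.2 in αA and 106 in PαA, and *Vdac1*, a channel of the outer membrane, had 47.3, 41.9 and 45.2. The median log2 ratio of the group was -0.08 for αA against N and -0.04 for PαA against N, beside -0.14 and -0.19 for all genes.

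The kinases and the exporter that send NFAT back to the cytoplasm had a median log2 ratio of PαA to N of -0.38 over 7 genes, beside -0.19 for all genes. Of these, 0 were past 2-fold, beside 7.77% of all genes lower and 2.57% higher. *Gsk3a* had an RPKM of 46.5, 43.5 and 33.0 and *Csnk1a1* 60.9, 49.5 and 46.7. Of the calmodulin-dependent kinases, 3 had an RPKM above 5, and the median of their ratios of PαA to N was -0.57, beside -0.19 for all genes. *Camk4* had 7.91, 6.38 and 5.32 and *Camk2g* 6.25, 5.41 and 6.02, a ratio of -0.05 that turned to 0.18 with TMM factors. The medians by role were not centred on exon length. The libraries have no replicates, so none of these differences was tested.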
